A study of Rattus norvegicus with 5 samples.

Results

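The genes of 3 gut hormones, gastrin (Gast), cholecystokinin (Cck) and secretin (Sct), were followed in the rat insulinoma line INS-1, a model of insulin-secreting beta cells, and in clones made from it. The members were all probe sets that the array's annotation gives to these symbols. Each gene had 1 probe set, so 3 of the 10411 genes with a probe set of their own are described. Total RNA was measured on 1-colour rat arrays, with 1 array for each of 4 clones and 1 for the parental line. The clones of set 5-3 are 5-3.14 (replicate 1) and 5-3.19 (replicate 2), and those of set 1-1 are 1-1.2 (replicate 1) and 1-1.16 (replicate 2). Every clone carries an FRT site for Flp-mediated insertion of a gene and the tetracycline repressor, and the parental line is INS-1 without either. No inserted gene, treatment or time is given for any of these samples. Each array stands for a single clone or culture, and a shared origin of clones within a set is neither stated nor denied.

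Gastrin is made by G cells of the gastric antrum and drives acid secretion, cholecystokinin is made by I cells of the small intestine and by neurons and releases bile and pancreatic enzymes, and secretin is made by S cells of the duodenum and releases bicarbonate. Gastrin and cholecystokinin share their amidated C-terminal end, and both can act on the receptor encoded by Cckbr. Gastrin is also made in the islets of the fetal pancreas and is largely silent in adult islets, so its transcript in an insulinoma line is an ectopic hormone signal relative to the adult beta cell.

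The cells carried the transcripts of their labelled type, and also that of Gcg, a marker of another islet endocrine type. Of 11 beta cell markers, 9 were on the array and all 9 were bright enough to test, with Iapp at 28102 and 19159.8 in the 5-3 clones, against 33945.2 and 19870.5 in the 1-1 clones and 27898.8 in parental cells. Ins1, an insulin gene on the same list, read 37972.5 and 37189.5 in the 5-3 clones, against 42217.0 and 34380.8 in the 1-1 clones and 37359.9 in parental cells. Ins2, which also encodes an insulin, varied more, with 3952.8 and 4302.7 in the 5-3 clones, against 30224.0 and 5380.8 in the 1-1 clones and 28816.1 in parental cells. For Ins2, both 5-3 clones and clone 1-1.16 were the low samples, and the part of this in the hormone results was not tested. Of 4 markers of other islet endocrine cells on the array, only Gcg reached the brightness limit on average. It read 20549.5 and 24433.9 in the 5-3 clones, against 2063.6 and 17772.1 in the 1-1 clones and 6874.5 in parental cells. None of the 10 exocrine and ductal, 3 endothelial and 6 leukocyte markers on the array reached that limit, and of 8 fibroblast markers only Thy1 did. The summed signal of the exocrine and ductal list was 550.6 and 766 in the 5-3 clones, against 697 and 874.8 in the 1-1 clones and 660.4 in parental cells. Signals have arbitrary linear units and a trimmed mean of 1000 on each array. Differences are of log2(signal + 21.8), with the 10th percentile of positive signals as the offset, and this scale understates the change of dim genes.

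Gastrin was the hormone whose difference between the clone sets passed the test, and so the region in front of its gene is shown. It runs from 250 bases before to 50 bases after the annotated start, from the RefSeq table for build GRCr8, on the plus strand at chr10:85764966-85765265. Capitals mark 3 motifs, a TATATAA box, CACCC on either strand and CANNTG, an E-box:
Gast: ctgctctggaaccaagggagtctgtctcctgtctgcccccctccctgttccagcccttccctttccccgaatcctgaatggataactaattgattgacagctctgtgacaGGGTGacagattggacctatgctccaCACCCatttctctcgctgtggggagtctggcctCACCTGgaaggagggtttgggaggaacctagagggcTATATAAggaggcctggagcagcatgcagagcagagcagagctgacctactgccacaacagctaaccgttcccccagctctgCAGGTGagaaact
Counted from the annotated start, TATATAA began at −45, CACCC matched at −140 on the minus strand and at −114 on the plus strand, and CANNTG matched at −81 and at 38. Over 33469 promoters of the same length in the table, 3.93% held TATATAA, 54.9% held CACCC and 72.1% held CANNTG on at least 1 strand. A further form of the TATA box and motifs of 3 other kinds were searched for on both strands and not found in the window. That TATA form, TATAAA, was in 14.2% of promoters. The GC box, spelled GGGCGG, was in 33.1% of them. The cyclic AMP element TGACGTCA was in 1.83%. The AP-1 letters TGANTCA were in 7.33%. Cck and Sct were not in the promoter table.

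Gastrin was close to the bottom of the array in both 5-3 clones and bright in every other sample. Gast read 12.9 in clone 5-3.14 and 18.0 in clone 5-3.19, against 2540.1 in clone 1-1.2, 3474.5 in clone 1-1.16 and 1361.6 in the parental line. The 5-3 signals lay below the offset, and only 6.55% and 8.14% of probe sets on those arrays were dimmer. On the 1-1 arrays 87.6% and 91.2% of probe sets were dimmer than Gast, and on the parental array 77.0%. The groups did not overlap, and the parental line lay between the sets. This order, with both 5-3 clones below and both 1-1 clones above the parental line, was found for 6.42% of the 9520 probe sets bright enough to test. No detection calls were used, so the 5-3 values are given no order and cannot be told from background.

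**Figure D1:**
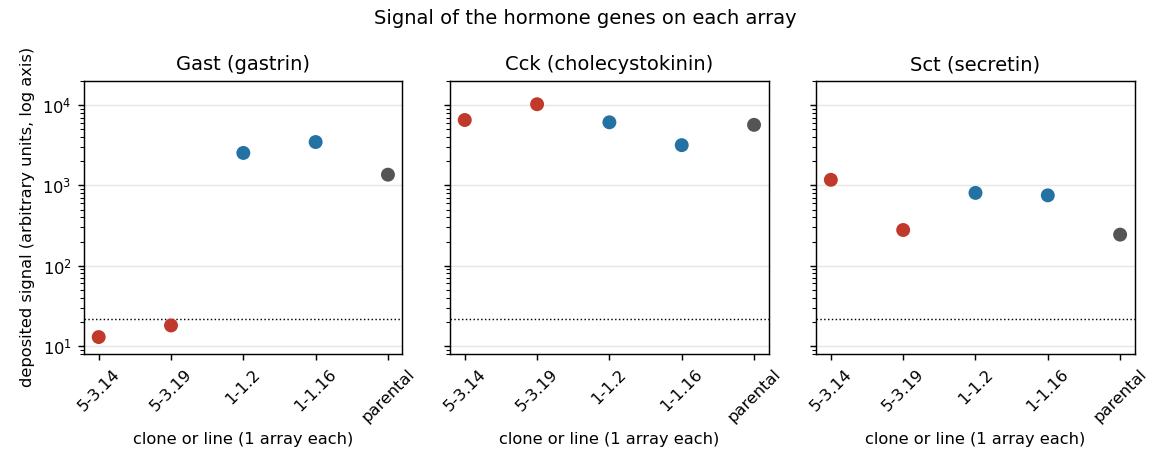
Deposited signal (log axis, arbitrary units) of Gast, Cck and Sct on each array, with 1 point per clone or line. The dotted line is the offset of 21.8; Gast lies under it in both 5-3 clones, at 12.9 and 18.0, and above 1000 on the other arrays, while Cck stays between 3177.5 and 10280.0 and Sct between 243.8 and 1175.8.

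In the 5-3 clones Gast fell by 6.33 on the log2 scale relative to the 1-1 clones (SE 0.27, 95% interval −6.98 to −5.69, n = 2 each), an 80.5-fold lower fitted level, with limma adjusted p = 0.000499. With this offset, and with one 4 times larger or smaller, it ranked 1 by size among the 9520 differences between the sets. Its log2 range over the 5 arrays was 6.65. limma called 19 probe sets lower (0.200%) and 21 higher (0.221%) in the 5-3 clones, and at an unadjusted p under 0.05 this contrast held 1413 (14.8%). Without clone 1-1.2 it called 34 higher, without 5-3.14 it called 100 lower and 125 higher, and without 5-3.19 it called 195 lower and 134 higher. The ratio of the highest to the lowest deposited signal was 269.3. Since the 5-3 values lie under the offset, the offset sets the size of the fold, and an offset 4 times larger or smaller gave −4.90 or −7.16. The offset also narrows the spread between the 5-3 clones. Their log2 difference was 0.20 with this offset, 0.07 with the larger one and 0.48 with none. The SE, the interval and the p-value rest in part on that spread. With the larger and the smaller offset the limma adjusted p was 0.000811 and 0.00047. Gast entered the test only through the 1-1 and parental arrays, where it was bright.

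Relative to the parental line Gast fell by 5.22 in the 5-3 clones (log2, SE 0.33, 95% interval −6.01 to −4.43), with limma adjusted p = 0.0138. It was the single probe set called in that contrast, 0.0105% of those tested called lower and 0 called higher, with 743 probe sets at an unadjusted p under 0.05. Median centring, quantile normalization and cyclic loess each called 4 lower and 1 higher, and fits without 1 clone called 9 to 129 lower and 4 to 60 higher. The Gast call was lost without a filter on dim probe sets, where 15866 were tested (adjusted p = 0.102), and 10 of 11 alternatives kept it, with adjusted p from 0.000258 to 0.102 over all 11. With the 60th percentile filter Gast was not tested, so that setting is not among the 11 and made no Gast call either. The larger and the smaller offset gave −3.82 and −6.04 in this contrast. Gast was 39.9-fold lower in clone 5-3.14 and 34.8-fold lower in clone 5-3.19 with the offset, which sets these sizes too. A 2-fold fall was seen for 5.6% of probe sets in 5-3.14 and 2.61% in 5-3.19.

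In the 1-1 clones the Gast signal was above the parental one in both, by 1.85-fold in 1-1.2 and 2.53-fold in 1-1.16. A 2-fold rise was seen for 1.6% and 3.16% of probe sets in these clones. The fitted difference from the parental line was 1.11 (log2, SE 0.33, 95% interval 0.32 to 1.90) and did not pass the test (unadjusted p = 0.0129, limma adjusted p = 0.495), where limma called 0 probe sets higher and 806 had an unadjusted p under 0.05. The clones of set 1-1 differed by 0.45 on the log2 scale, a difference exceeded by 21.4% of probe sets between them. Over the 4 clones as 1 group, the Gast difference from the parental line was −2.05 with an SE of 2.70, with the sets on opposite sides of it, and limma's adjusted p was 1.0. limma called 0 probe sets in either direction in that contrast, with 349 at an unadjusted p under 0.05.

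The parental line has a single array, assumed to vary like the clones, so the line and the handling of its array cannot be told apart in these values. On that array the probe sets of the poly(A) controls were brighter than the mean of the clones. The ratio was 1.27 for phe, 1.36 for dap, 1.54 for thr and 3.56 for lys. The part of these controls in the differences was not tested. The difference between the sets does not use the level of the parental array. Within a set the spread comes from 2 clones. limma pools that spread over the groups of a fit and moderates it with that of other probe sets. A p-value here is measured against this moderated spread, not against the spread among clone sets at large.

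**Figure D2:**
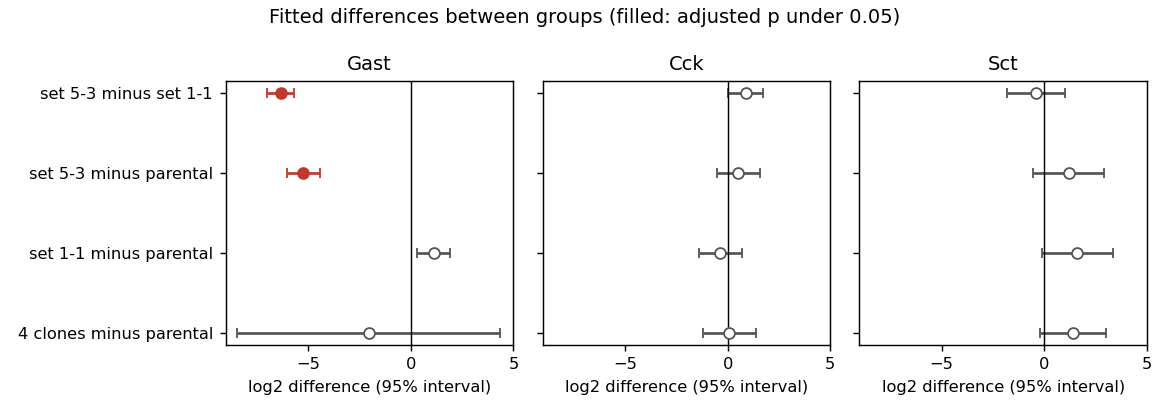
Fitted log2 differences of Gast, Cck and Sct in 4 contrasts with 95% intervals from limma; filled points have an adjusted p under 0.05. The filled points are Gast in set 5-3 minus set 1-1 (−6.33) and set 5-3 minus parental (−5.22), and every other interval belongs to a contrast that did not pass.

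Cholecystokinin was bright on every array and had the narrowest range of the 3 hormones. Cck read 6536.8 in clone 5-3.14 and 10280.0 in clone 5-3.19, against 6120.0 in clone 1-1.2, 3177.5 in clone 1-1.16 and 5689.2 in the parental line. On each array at least 90.2% of probe sets were dimmer. The 5-3 clones lay above both 1-1 clones, while clones 5-3.14 and 1-1.2 and the parental line lay close together, with ratios to the parental signal of 1.15 and 1.08. Cck averaged 8408 ± 2647 in set 5-3 and 4649 ± 2081 in set 1-1 (SD, n = 2 each).

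The Cck difference between the sets was 0.89 (log2, SE 0.36, 95% interval 0.04 to 1.74), a 1.85-fold higher fitted level in the 5-3 clones. It did not pass over all probe sets (unadjusted p = 0.0427, limma adjusted p = 0.311), and 22.1% of probe sets were likewise higher in both 5-3 clones than in both 1-1 clones. Against the parental line the Cck differences were 0.53 for set 5-3 and −0.37 for set 1-1, both with an SE of 0.44, and neither passed (limma adjusted p = 0.889 and 0.850). Single clones moved these values: the difference between the sets was 0.42 without 1-1.16 and 1.36 without 1-1.2, and that from the parental line was 0.20 without 5-3.19 and 0.85 without 5-3.14 for set 5-3. The 95% intervals reached from 0.699 to 2.97 times the parental level for set 5-3 and from 0.377 to 1.6 times for set 1-1. The clones of set 1-1 differed by −0.94 (1-1.16 minus 1-1.2), a size exceeded by 3.34% of probe sets, and those of set 5-3 by 0.65, exceeded by 17.3%. The log2 range of Cck over the 5 arrays was 1.69, and 6.7% of probe sets ranged more widely.

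Secretin followed neither the sets nor the other hormones, and in clone 5-3.19 it read close to the parental level. Sct read 1175.8 in clone 5-3.14 and 278.5 in clone 5-3.19, against 807.2 in clone 1-1.2, 752.6 in clone 1-1.16 and 243.8 in the parental line. The 1-1 clones lie between the 5-3 clones, so the sets overlap. Sct was 4.51-fold above the parental array in 5-3.14, 3.12-fold in 1-1.2 and 2.92-fold in 1-1.16, and 1.13-fold in 5-3.19. All 4 clones were above the parental array, as were 18.4% of probe sets. A 2-fold rise was seen for 3.32% of probe sets in 5-3.14, 1.6% in 1-1.2 and 3.16% in 1-1.16. In 5-3.19, where Sct did not rise 2-fold, the share was 2.56%.

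Within set 5-3 the Sct signal of 5-3.19 was 3.99-fold below that of 5-3.14, a log2 difference of −2.0 that 0.662% of probe sets exceeded between these clones. A 2-fold fall between them was seen for 1.78%. Those of set 1-1 differed by −0.10, which 78.1% of probe sets exceeded. Sct averaged 727 ± 635 in set 5-3 and 780 ± 38.6 in set 1-1 (SD, n = 2 each), and their difference was −0.42 (log2, SE 0.59, 95% interval −1.82 to 0.99, limma adjusted p = 0.803).

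The Sct differences from the parental line were 1.17 in the 5-3 clones, 1.59 in the 1-1 clones (both with an SE of 0.72) and 1.38 in the 4 clones together (SE 0.67), and none passed (limma adjusted p = 0.788, 0.611 and 1.0). The spread between the 5-3 clones enters each of these fits. Without clone 5-3.19, where 5-3.14 stands alone for its set and is assumed to vary like the 1-1 clones, the differences from the parental line were 2.17 for 5-3.14 and 1.59 for the 1-1 clones and passed (limma adjusted p = 0.0113 and 0.0359). That fit called 60 probe sets higher (0.63%) and 129 lower for 5-3.14, and 32 higher (0.336%) and 64 lower for the 1-1 clones, where the fit to all 5 arrays called 0 higher in each. In the same fit the difference between the sets turned to 0.58 (adjusted p = 0.309). Without clone 5-3.14 the difference between the sets was −1.42 (adjusted p = 0.0522). The log2 range of Sct, 2.17, was exceeded by 2.97% of probe sets.

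The receptors of these hormones were dim throughout. Both probe sets of Cckbr, the receptor for gastrin and cholecystokinin, lay below the brightness limit, and the brighter one read 44.7 and 34.1 in the 5-3 clones, against 41.9 and 90.1 in the 1-1 clones and 83.1 in parental cells. The secretin receptor gene Sctr read 7.8 and 21.4 in the 5-3 clones, against 9.5 and 21.7 in the 1-1 clones and 9.0 in parental cells. Cckar, which encodes the receptor selective for sulphated cholecystokinin, had no probe set named with its symbol. These probe sets were too dim to be tested, so no difference between samples was examined.

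Of 9 listed genes for maturing these peptides, all but Pcsk1 had a probe set named with their symbol, and these 8 were tested. None passed in any contrast, and 3 had an unadjusted p under 0.05 between the sets, where 14.8% of all tested probe sets had one. Of the 8, 5 were higher and 3 lower in the 5-3 clones than in the 1-1 clones, with a median log2 difference of 0.08 against −0.04 over all probe sets. Pcsk2, a convertase that cleaves prohormones, read 7512.2 and 8705.3 in the 5-3 clones, against 3331.2 and 1974.2 in the 1-1 clones and 9129.9 in parental cells, a log2 difference between the sets of 1.65 (limma adjusted p = 0.0692). Pcsk1n, a precursor whose product inhibits Pcsk1, read 4737.3 and 5627.2 in the 5-3 clones, against 1835.6 and 1224.5 in the 1-1 clones and 3985.9 in parental cells (log2 difference 1.77, limma adjusted p = 0.0519). For both genes the 1-1 clones, where Gast was brightest, had the lowest signal.

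The other named maturation genes had smaller differences between the sets. Pam, the amidating enzyme that completes the shared C-terminal end of gastrin and cholecystokinin, read 14576.5 and 11757.2 in the 5-3 clones, against 13900.4 and 14154.6 in the 1-1 clones and 11002.5 in parental cells. Tpst1, which sulphates tyrosines, read 636.1 and 877.3 in the 5-3 clones, against 920.8 and 1399.8 in the 1-1 clones and 955.7 in parental cells. Qpct, which forms N-terminal pyroglutamate, read 673.6 and 1200.9 in the 5-3 clones, against 1644.5 and 1886.8 in the 1-1 clones and 1002.0 in parental cells. Scg5, a chaperone of Pcsk2, was lowest in clone 5-3.14 at 11448.9, against 22901.5 in 5-3.19, 15078.9 and 14615.3 in the 1-1 clones and 22657.3 in parental cells. The log2 differences between the sets were −0.10, −0.59, −0.95 and 0.13, and none passed (limma adjusted p = 0.845, 0.429, 0.221 and 0.898).

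Of 28 other gut and neuroendocrine peptide genes, 26 were on the array and 5 were bright enough to test. The others were below the brightness limit on average, which does not exclude signal in a single sample. Of these, 2 are named after their values were seen. Gip, the gastric inhibitory polypeptide gene, read 3195.6 in clone 1-1.2, against 17.4 and 63.8 in the 5-3 clones, 52.1 in clone 1-1.16 and 85.7 in parental cells. Tac1, the substance P precursor, read 197.5 and 425.9 in the 5-3 clones, against 9.1 and 32.0 in the 1-1 clones and 286.6 in parental cells. Gip was thus high in 1 clone, and Tac1 was dim in both 1-1 clones. None of the 5 tested passed, 2 were higher and 3 lower in the 5-3 clones than in the 1-1 clones, and the median difference was −0.16. Guca2b, which encodes the intestinal peptide uroguanylin, read 981.8 and 1080.3 in the 5-3 clones, against 154.1 and 276.6 in the 1-1 clones and 683.3 in parental cells, a log2 difference between the sets of 2.20 (limma adjusted p = 0.0510). Both 5-3 clones were above both 1-1 clones, as for 22.1% of probe sets, the opposite order to Gast. Cartpt, the precursor of a neuroendocrine peptide, was likewise lower in both 5-3 clones than in every other sample, with 243.6 and 217.3 in the 5-3 clones, against 661.8 and 537.2 in the 1-1 clones and 603.4 in parental cells (−1.30, limma adjusted p = 0.101), and 24.5% of probe sets were lower in both 5-3 clones than in both 1-1 clones.

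Gcg, the glucagon precursor, read 20549.5 and 24433.9 in the 5-3 clones, against 2063.6 and 17772.1 in the 1-1 clones and 6874.5 in parental cells (log2 difference between the sets 1.88, limma adjusted p = 0.382). Npy read 1664.4 and 1425.5 in the 5-3 clones, against 4178.7 and 1620.6 in the 1-1 clones and 5551.7 in parental cells (−0.75, limma adjusted p = 0.478). For both, clone 1-1.16 lay with or near the 5-3 clones, which Gast did not show.

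Transcription factors of enteroendocrine and islet cells did not pass in any contrast. Of 24 listed genes, 15 were on the array and 10 were tested, and 8 were higher and 2 lower in the 5-3 clones than in the 1-1 clones, with a median log2 difference of 0.59, against −0.04 over all tested probe sets. At an unadjusted p under 0.05 there were 2 of the 10, a share to read against the 14.8% of all probe sets. Neurod1, a basic helix-loop-helix factor known to act on the secretin gene, read 6391.7 and 5773.0 in the 5-3 clones, against 6926.6 and 2790.1 in the 1-1 clones and 8773.2 in parental cells. Pax6, a factor needed for islet hormone genes, read 8946.6 and 9167.9 in the 5-3 clones, against 7042.8 and 4132.1 in the 1-1 clones and 8395.1 in parental cells. Isl1 read 3029.2 and 2036.2 in the 5-3 clones, against 1987.0 and 1148.4 in the 1-1 clones and 2543.5 in parental cells. By their brightest probe set, all 10 tested factors had a fitted level in the 1-1 clones under that of the parental line, as had 47.8% of all tested probe sets. Their median difference was −0.75, against 0.02 over all probe sets, and none of them passed. A second tested probe set of Gata6 went the other way, at 0.34. In set 5-3 minus parental 8 of the 10 were also lower, with a median of −0.21, against −0.03 over all probe sets. In the 4 clones minus parental 10 were lower, with a median of −0.44, against 0.01. All these differences share the single parental array.

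Further factors named by the rule were Hnf4a, Gata6 and St18. Hnf4a, a nuclear receptor, read 404.4 and 362.0 in the 5-3 clones, against 150.2 and 121.4 in the 1-1 clones and 433.1 in parental cells (log2 difference between the sets 1.37, limma adjusted p = 0.107). Gata6 and St18 differed by 0.79 and 1.02 (limma adjusted p = 0.356 and 0.411), but the second Gata6 probe set differed by −0.40, so the sign for Gata6 is not settled. Of 14 listed general factors known to act on promoters of these hormone genes, all were on the array, 10 were tested and none passed. Among them Atf4, a stress-response factor, read 4709.2 and 3698.7 in the 5-3 clones, against 6878.5 and 8095.7 in the 1-1 clones and 5226.0 in parental cells (−0.84, limma adjusted p = 0.159). Egr1, an immediate early factor, read 956.2 and 2145.3 in the 5-3 clones, against 2492.0 and 2304.4 in the 1-1 clones and 2146.0 in parental cells (−0.73, limma adjusted p = 0.441). Klf4, Zfp148, Creb1 and Jun had differences between the sets of −0.38, −0.01, 0.30 and −0.89, with limma adjusted p from 0.534 to 0.993.

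Receptors through which gut endocrine cells sense calcium and peptides were tested for 5 of 14 listed genes, with 7 on the array, and none passed. Between the sets 4 of the 5, by their brightest probe set, had an unadjusted p under 0.05, against 14.8% of all probe sets. Their directions were mixed, and the list was chosen with earlier results of these data known. Casr, the calcium-sensing receptor that stimulates gastrin release in G cells, read 615.2 and 1571.8 in the 5-3 clones, against 245.9 and 106.3 in the 1-1 clones and 1067.7 in parental cells (log2 difference between the sets 2.44, limma adjusted p = 0.122). The somatostatin receptor gene Sstr3 read 1032.8 and 981.6 in the 5-3 clones, against 409.6 and 344.3 in the 1-1 clones and 1526.3 in parental cells (1.37, limma adjusted p = 0.0692). Sstr1, Sstr2 and Sstr5 had differences of 0.66, −0.80 and −0.49, with limma adjusted p = 0.250, 0.220 and 0.560. A second tested probe set of Sstr1 differed by 0.6 (unadjusted p = 0.0671, limma adjusted p = 0.384).

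**Figure D3:**
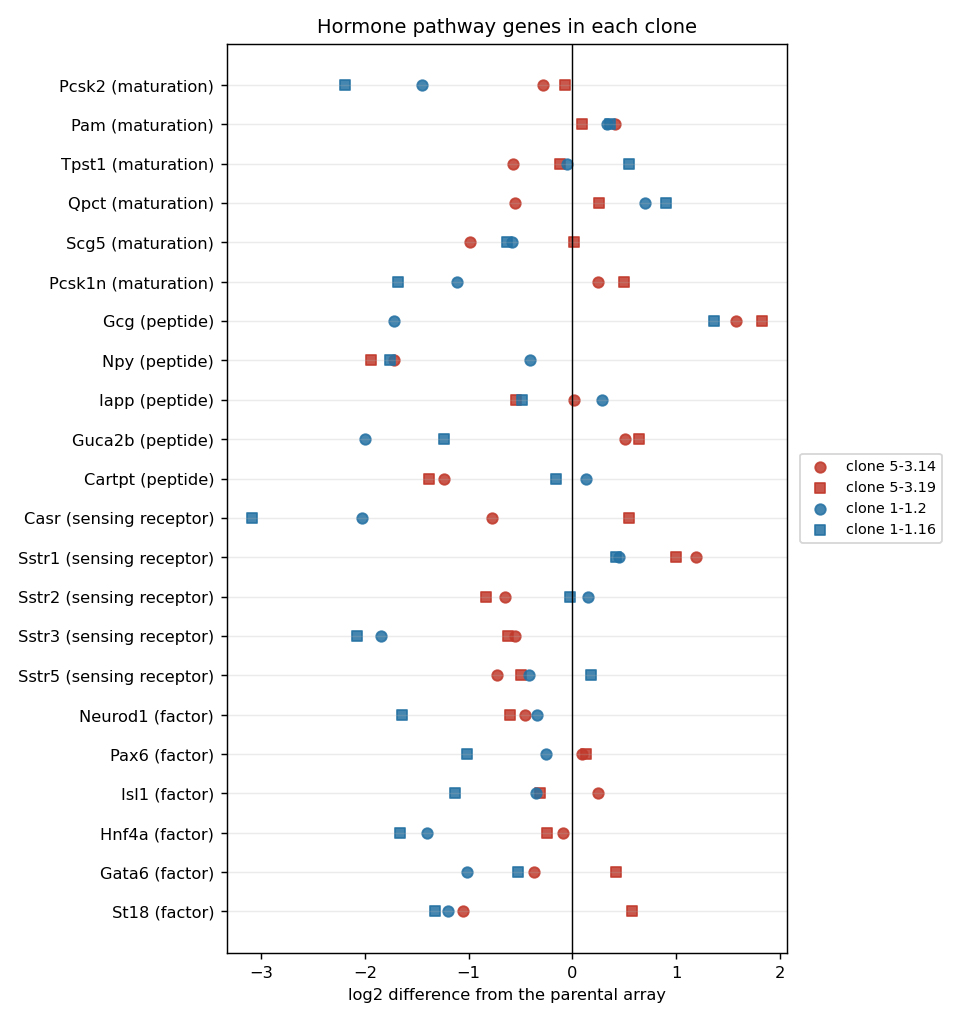
Log2 difference of each clone from the parental array, on the log2(signal + 21.8) scale, for tested genes of peptide maturation, other peptide hormones, sensing receptors and transcription factors; points are single clones. The 1-1 clones lie left of the 5-3 clones for Pcsk2, Pcsk1n, Guca2b, Casr, Sstr3 and Hnf4a, among others, and right of them for genes such as Cartpt, Qpct and Sstr2.

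The nearest genes with a probe set, up to 3 on each side, were set beside the hormone genes, and other genes can lie in between. In the GRCr8 gene table, which serves here for gene order alone, the nearest genes with a probe set on the higher side of Gast are Hap1, Jup and P3h4, with 0, 1 and 4 other genes between them and Gast. Hap1 read 1901.0 and 2023.8 in the 5-3 clones, against 3044.3 and 2481.7 in the 1-1 clones and 3327.6 in parental cells, a log2 difference of −0.48 between the sets (limma adjusted p = 0.366). Jup read 1438.0 and 900.6 in the 5-3 clones, against 454.5 and 529.8 in the 1-1 clones and 837.7 in parental cells, with the sets in the opposite order to Gast (1.18, limma adjusted p = 0.150). P3h4 read 171.3 and 248.4 in the 5-3 clones, against 325.2 and 373.3 in the 1-1 clones and 193.2 in parental cells (−0.70, limma adjusted p = 0.349). Hap1 and P3h4 had the sets in the same order as Gast, as had 24.5% of tested probe sets. The order of Jup was found for 22.1%. The nearest genes on the other side, the keratin genes Krt14, Krt19 and Krt15, lie beyond 6 to 11 others and were below the brightness limit on all 5 arrays on average, so they give no comparison. Of the tested genes near Cck (Trak1, Ctnnb1, Rpl14, Ss18l2 and Nktr, beyond 2 to 17 others) and near Sct (Irf7, Phrf1, Deaf1 and Tmem80, beyond 1 or 2), none passed in any contrast, and differences between the sets ran from −0.21 for Tmem80 to 0.42 for Irf7 and Nktr.

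**Figure D4:**
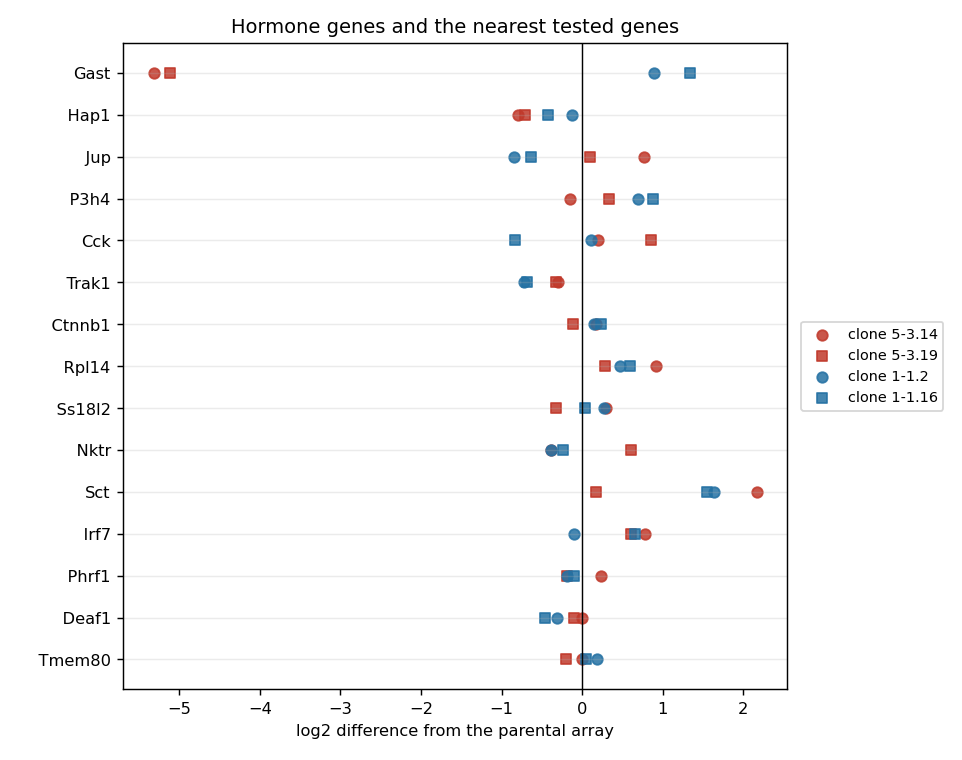
Log2 difference of each clone from the parental array, on the log2(signal + 21.8) scale, for Gast, Cck and Sct and the nearest tested genes with a probe set, listed under each. Gast in both 5-3 clones, at −5.32 and −5.12, lies far left of every gene near it, and Sct lies at 1.54 or above in every clone but 5-3.19.

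The genes with the most similar profile over the 5 arrays were named by Pearson's r of log2 values among 2084 tested probe sets with 1 symbol and a log2 range of at least 1. These values are a description over 5 arrays that the genes share. For Gast they were Slc1a1, Marchf7, Dnajc10, Ankrd24 and Dusp11, with r from 0.991 to 0.996, and 4.27% of candidates had r above 0.9. Marchf7 read 26.4 and 39.1 in the 5-3 clones, against 1029.8 and 1864.7 in the 1-1 clones and 1029.4 in parental cells. Slc1a1, a glutamate transporter gene, had the same shape with a smaller range, at 155.4 and 171.1 in the 5-3 clones, against 541.5 and 564.1 in the 1-1 clones and 505.9 in parental cells. By Euclidean distance, which also weighs the size of the change, Marchf7 was the 1 gene found again.

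For Cck the most similar genes were Elovl6, Apeg3, Klhl8, Chek2 and Uaca, with r from 0.964 to 0.980, and 3 of the 5 were found again by distance. Chek2, a DNA damage checkpoint kinase gene, read 854.2 and 1346.8 in the 5-3 clones, against 698.2 and 497.1 in the 1-1 clones and 763.3 in parental cells, with 5-3.19 highest and 1-1.16 lowest as for Cck. For Sct they were Enc1, Rrp1b, Ppp2r2b, Bst2 and App, with r from 0.976 to 0.984, and 2 of the 5 were found again. Bst2, an interferon-induced membrane protein gene, read 6367.0 and 1325.4 in the 5-3 clones, against 4722.5 and 3938.4 in the 1-1 clones and 1692.4 in parental cells. App, the amyloid precursor gene, read 16437.0 and 8543.8 in the 5-3 clones, against 12383.1 and 14291.2 in the 1-1 clones and 7079.4 in parental cells. Clone 5-3.19 and the parental line were the low pair for both, as they were for Sct. The 3 lists of 5 share no gene.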

How the data were processed

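Signal intensity values, 1 per probe set and array, were used as deposited. The sources used here do not give the software, background correction or detection calls; the trimmed mean of the deposited signals (lowest and highest 2% left out) was 1000.24 to 1000.28 on the 5 arrays, so the authors' values were already scaled, and the median signal was 342.4 to 371.6. Of 15923 probe sets, 57 controls were left out; names came from the platform table. Probe sets with a mean log2(signal + 21.8) over the 5 arrays at or above the 40th percentile were tested (9520), which all 3 members passed. Gast passed only through the 1-1 and parental arrays, where it was bright. Its signals in the 5-3 clones, 12.9 and 18.0, lay under the offset.

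limma 3.58.1 in R 4.3.3 (lmFit, eBayes with an intensity trend) was fitted to all tested probe sets with 3 groups (2 residual degrees of freedom), or with the 4 clones as 1 group (3), with Benjamini-Hochberg adjustment at 0.05. On simulated data, for set 5-3 against set 1-1, the test found 2.99% of simulated 2-fold, 77.6% of 4-fold and 96.5% of 16-fold changes, with 6 false calls among 9520 probe sets. Against the parental line it found fewer 4-fold changes, 56.1% for set 5-3 and 50.7% for set 1-1. Of 2-fold changes it found 1.49% in each of these contrasts. Scaling, offset, filter, variance model and each clone were varied. The members and lists were chosen with earlier results of these data known. For each list, up to 6 tested genes with the widest log2 range were named, each by its brightest probe set, and every receptor. Replicate numbers only name clones.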

Additional observations from a re-analysis of the deposited data

Results flagged for a closer look

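The Gast difference from the parental line was not the same in the clone sets: both 5-3 clones lay below the parental array and both 1-1 clones above it. Both differences share the parental array, which drops out when they are compared. The test is therefore the contrast between the sets given above, −6.33 on the log2 scale (limma adjusted p = 0.000499), and not a further result. The difference of the 1-1 clones from the parental line, 1.11, did not pass (limma adjusted p = 0.495). This order was found for 6.42% of tested probe sets.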

How the results depend on the processing

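Of 139 alternative values of the members' fitted differences, 133 kept their direction and their side of the threshold. The Gast difference between set 5-3 and the parental line kept its size without the filter on dim probe sets, −5.22, but lost its call (adjusted p = 0.102). Under the 60th percentile filter Gast and Sct were not tested. Differences of single clones from the parental array kept their side of the 2-fold limit. Between the 1-1 clones Cck reached −1.04 under median centring, past that limit. Leaving out 1 clone at a time gave −0.18 to 0.39 for Cck in the 4 clones minus parental and −0.84 to 0.10 in set 1-1 minus parental, with the sign turned without 5-3.19 and without 1-1.16. It gave 0.42 to 1.36 for Cck between the sets and 0.20 to 0.85 in set 5-3 minus parental. For Sct it gave 1.54 to 1.64 in set 1-1 minus parental, 0.18 to 2.17 in set 5-3 minus parental and −1.42 to 0.58 between the sets, with the calls and the turned sign without 5-3.19 given above. Counts of called probe sets moved more, and the cause was not tested. Between the sets they were 38 higher and 32 lower under median centring, 32 and 32 with the larger offset, 7 and 3 without the filter, 6 and 6 with the 60th percentile filter, 13 higher without the variance trend, and 29 to 134 higher and 18 to 195 lower without 1 clone. For set 5-3 minus parental they were 1 higher and 4 lower under median centring, quantile normalization and cyclic loess, 1 and 3 with the larger offset, 0 lower without the filter and with the 60th percentile filter, and 4 to 60 higher and 9 to 129 lower without 1 clone. For set 1-1 minus parental, 0 were lower under median centring, without the filter and without the trend, and 0 to 32 were higher and 4 to 64 lower without 1 clone. No paired analysis was possible because the replicate numbers only name the clones. Signals near the bottom of the scale limit Gast in the 5-3 clones and the receptors. In fits without 1 clone, the clone left in its set is assumed to vary like the other set.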
